A study of Saccharomyces cerevisiae with 2 samples.

Results

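Thioredoxins, glutaredoxins and glutathione are the thiol redox systems of the cell, and 10 of their genes in budding yeast (Saccharomyces cerevisiae) were followed here through a shift to high salt. The 10 genes were taken by systematic name, as a fixed list of TRX1 (YLR043C), TRX2 (YGR209C), TRX3 (YCR083W), TRR1 (YDR353W), TRR2 (YHR106W), GRX1 (YCL035C), GRX2 (YDR513W), GLR1 (YPL091W), GSH1 (YJL101C) and GSH2 (YOL049W), from the 6868 features of the deposited table. All 10 were present, and none was listed at exactly 0. The list covers the cytosolic and mitochondrial thioredoxins with their reductases, the paralogous glutaredoxins GRX1 and GRX2, glutathione reductase and both enzymes of glutathione synthesis.

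The study measured transcript abundance in strain BY4742, a haploid laboratory strain whose genotype is labelled WT his3kan, grown with shaking at 30C in synthetic complete medium. The whole study consists of 2 two-colour NimbleGen tiling arrays. The first compared cells 30 min after pre-warmed salt was added to 0.7 M NaCl with unstressed cells of the same strain and genotype, and the second compared cells 60 min after salt with unstressed cells. The titles place the unstressed cells at time zero, so salt and time in culture cannot be told apart. The salt-treated and the unstressed cDNA each carried the same dye in both hybridisations, without a dye swap, so the effects of dye and salt cannot be told apart either. There was 1 array for each time. No value below therefore has an error across cultures, no test against replicate spread was possible, and differences are described by size. The unstressed channels are named differently, and no label tells if they came from 1 culture, which bears on each difference between the times.

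Each value is a log2 ratio of the channels of an array, with base 2 assumed from the range of the values. The sign was kept as deposited and taken as likely salt over unstressed. The basis is a list of 10 textbook salt-induced genes, none of them among the redox genes described here, which were all positive at both times, from 2.23 to 8.32 at 30 min and from 0.34 to 6.39 at 60 min. "Higher" and "lower" follow this likely direction and would all swap if the ratio ran the other way. Both arrays have a median of 0, so values are relative to the other features. A feature was counted as higher or lower when it reached 2-fold, that is 1 or more, or -1 or less, on the log2 scale. The 60 min values were spread less widely over the features (SD 0.71) than the 30 min values (SD 1.33). Places in the ranking of each array are therefore given beside the differences between the times.

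Thioredoxins are small proteins that reduce disulphides in peroxiredoxins, ribonucleotide reductase and the enzymes of sulphate assimilation, and thioredoxin reductase restores them with electrons from NADPH. Glutaredoxins do similar work with glutathione, a cysteine-containing tripeptide that is made in a pair of ATP-dependent steps and is itself kept reduced by an NADPH-dependent reductase. In yeast the systems overlap, and their best known transcriptional regulator is Yap1, a factor activated by peroxide, of which TRX2, TRR1, GLR1 and GSH1 are textbook targets.

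The 10 genes differed in sign and size. At 30 min 8 had positive and 2 had negative ratios, with a median of 0.72 and a range from -0.77 for TRX1 to 2.66 for GRX2. Of all 6868 features, 3399 were positive and 3406 negative at this time. GRX2, GRX1 and TRX3 were at least 2-fold higher, which is 3 of 10 against 15.8% of all features, and 0 of 10 were at least 2-fold lower, against 17.3% of all features. In either direction this is 3 of 10 against 33.1%. At 60 min the same 8 genes were positive and the same 2, TRX1 and TRR1, negative, with a median of 0.39. Of all features, 3393 were then positive and 3400 negative. At this time TRX2, GRX1 and GRX2 were at least 2-fold higher, again 3 of 10, against 6.67% of all features, and 0 of 10 were lower, against 4.32%, with 11.0% of all features past 2-fold in either direction. GRX1 and GRX2 thus passed 2-fold at both times, as did 5.17% of all features. TRX3 passed at 30 min alone and TRX2 at 60 min alone, and the 30 min value of TRX3, 1.01, lies just above the threshold and its 60 min value, 0.93, just below it. With the 60 min values stretched to match the 30 min array in SD or in interquartile range, TRX3 also passed 2-fold at 60 min (1.74 and 1.89), which made 4 of 10, against 15.7% and 16.9% of all features. By interquartile range 1 of 10, TRX1, was then lower, against 17.5%. With a threshold of 1.5-fold, 7 of 10 were higher and 2 of 10 lower at 30 min, each against 26.6% of all features. At 3-fold none of the 10 was higher at 60 min, against 2.61%.

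**Figure D1:**
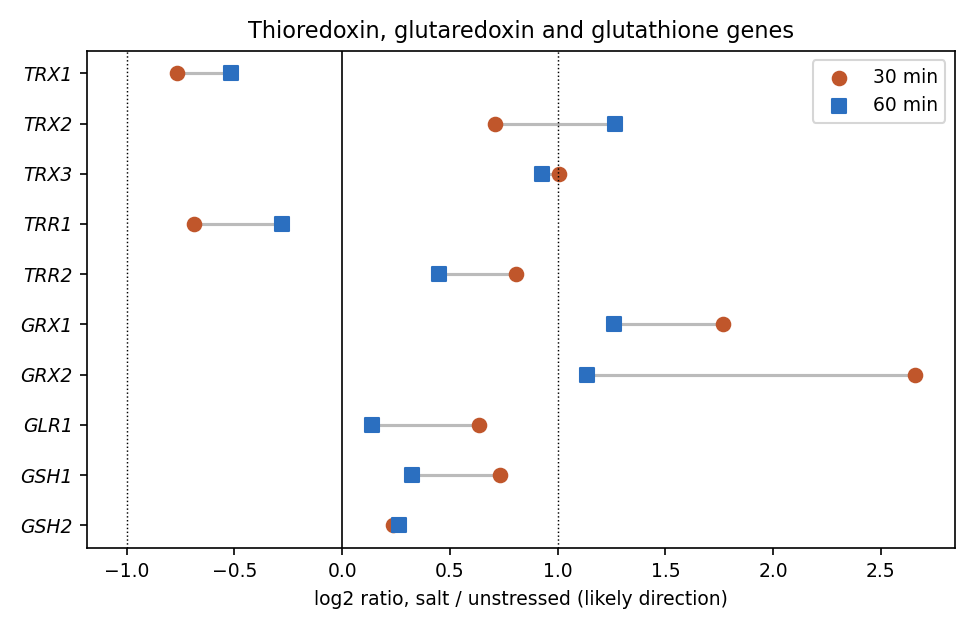
Log2 ratio of salt-treated over unstressed cells (likely direction, horizontal axis) for each of the 10 genes, with a circle for the 30 min array and a square for the 60 min array; each point is 1 array and has no error bar, and the dotted lines mark 2-fold. TRX1 and TRR1 lie left of 0 at both times, GRX2 shows the longest step between the times (from 2.66 to 1.14), and TRX2 moves away from 0.

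Among the thioredoxins, the cytosolic paralogs TRX1 and TRX2 had ratios of opposite sign. TRX1, which encodes a cytosolic thioredoxin, had -0.77 at 30 min and -0.52 at 60 min, which is 1.70-fold and 1.43-fold lower. It was the lowest of the 10 genes at both times, and its percentile among all features went from 22.0 to 16.5. TRX2, which encodes the other cytosolic thioredoxin, had 0.71 at 30 min and 1.27 at 60 min, which is 1.63-fold and 2.41-fold higher. Its place among the 10 genes went from the sixth at 30 min to the first at 60 min, and its percentile among all features from 77.3 to 96.0. On the deposited scale, only TRX2 and GSH2 of the 10 genes had a 60 min value farther from 0 than the 30 min value. For GSH2 the step was 0.03. With the 60 min values stretched to the SD of the 30 min array, TRX1, TRX3, TRR2 and GRX1 were farther from 0 too. TRX2 exceeded TRX1 by 1.48 on the log2 scale at 30 min (2.78-fold) and by 1.78 at 60 min (3.44-fold). The paralogs are similar in sequence, and whether probes of such pairs share signal was not tested.

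TRX3, the mitochondrial thioredoxin, had 1.01 at 30 min and 0.93 at 60 min. The step between the times was -0.08, so that 92.0% of the 30 min log2 ratio was left at 60 min. For comparison, the 1087 features that were at least 2-fold higher at 30 min kept a median of 41.8% of their log2 ratio, with an interquartile range from 25.2% to 59.1%. Its percentile among all features went from 84.3 to 92.4.

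The thioredoxin reductases were also split by sign. TRR1, the cytosolic enzyme that reduces TRX1 and TRX2, had -0.69 at 30 min and -0.28 at 60 min, with percentiles of 23.9 and 27.4. TRR2, its mitochondrial paralog, had 0.81 and 0.45, with percentiles of 79.7 and 81.4. TRR2 exceeded TRR1 by 1.49 at 30 min (2.81-fold) and by 0.73 at 60 min (1.66-fold). Neither reductase was 2-fold from 0 at either time, beside 33.1% of all features at 30 min and 11.0% at 60 min. Both mitochondrial genes, TRX3 and TRR2, were thus positive on both arrays, while the cytosolic genes TRX1 and TRR1 were negative on both and the cytosolic gene TRX2 was positive on both.

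**Figure D2:**
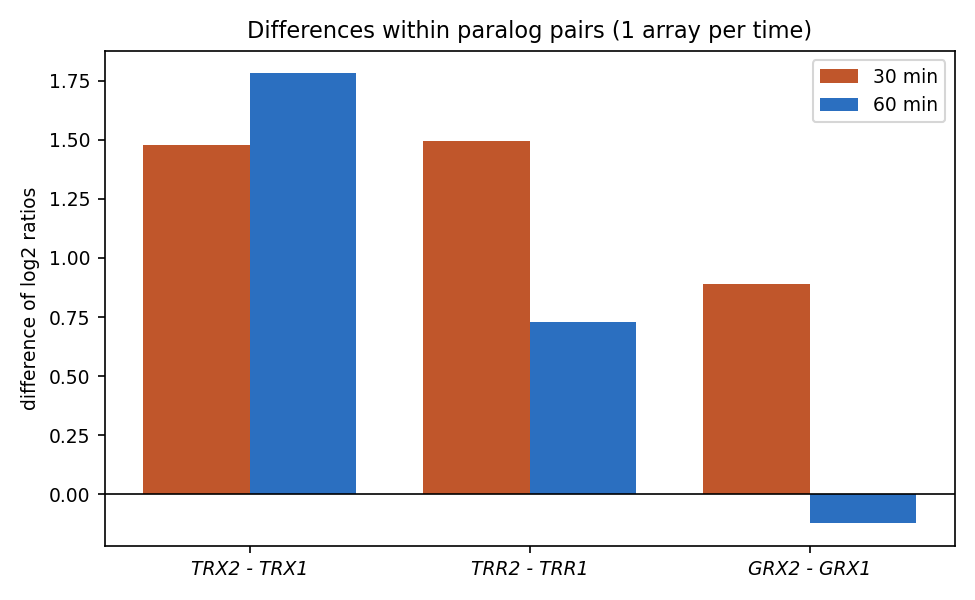
Difference of the log2 ratios within each paralog pair (vertical axis, with bars drawn from 0) at 30 min and 60 min. The bars give TRX2 minus TRX1, TRR2 minus TRR1 and GRX2 minus GRX1. Each bar is the difference of 2 values from 1 array and has no error bar. The thioredoxin difference is larger at 60 min (1.78) than at 30 min (1.48), the reductase difference is smaller (0.73 against 1.49), and that of the glutaredoxins goes from 0.89 to -0.12.

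The paralogous glutaredoxins GRX1 and GRX2 had the highest 30 min values of the 10 genes. GRX2, whose product provides most of the glutaredoxin activity and is found in the cytosol and mitochondria, had 2.66 at 30 min (6.32-fold) and 1.14 at 60 min (2.20-fold). The step of -1.52 was the largest of the 10, and 42.8% of the log2 ratio was left at 60 min, close to the median of 41.8% over the features that were 2-fold higher at 30 min. GRX1, its cytosolic paralog, had 1.77 at 30 min (3.41-fold) and 1.26 at 60 min (2.40-fold), with 71.2% left. GRX2 exceeded GRX1 by 0.89 at 30 min, whereas at 60 min they were 0.12 apart with GRX1 the higher. In rank GRX2 went from percentile 97.0 to 94.8 and GRX1 from 93.6 to 95.9. The annotated reading frame of GRX2 overlaps that of EMI1 in the reference gene table, and EMI1 had 1.15 at 30 min and 0.49 at 60 min. Whether the probes tell the strands apart is not stated in the labels, and a share of signal between GRX2 and EMI1 was not tested. No other gene of the 10 overlaps any of the 5984 features that the reference gene table holds. Overlap with features outside that table was not checked.

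The glutathione genes had small positive ratios. GLR1, glutathione reductase, had 0.64 at 30 min (1.55-fold) and 0.14 at 60 min (1.10-fold). Of the 10 genes it kept the smallest part of its 30 min log2 ratio, 21.6%, and its percentile went from 75.2 to 62.6. GSH1, the gamma-glutamylcysteine ligase of the first and rate-limiting step of glutathione synthesis, had 0.73 at 30 min (1.66-fold) and 0.32 at 60 min (1.25-fold). Its percentile went from 78.0 to 75.9. GSH2, glutathione synthetase, which adds glycine in the second step, had 0.24 and 0.26, with percentiles of 60.6 and 72.1. The 2 synthesis genes were 0.50 apart at 30 min and 0.06 apart at 60 min. No glutathione gene was 2-fold from 0 on either array, beside 33.1% of all features at 30 min and 11.0% at 60 min. Of the Yap1 targets named above, TRX2, GLR1 and GSH1 were positive and TRR1 negative at both times.

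The step from 30 to 60 min was towards 0 for 8 of the 10 genes, a share near that of all features, of which 77.3% had a 60 min value closer to 0. This count depends on the scale of the 60 min array. When the 60 min values were multiplied by 1.88 to match the SD of the 30 min array, 4 of 10 were closer to 0, against 53.5% of all features. Matched on the interquartile range instead, 4 of 10 were closer, against 50.1%. Under the SD scaling TRX1, TRX3, TRR2 and GRX1 changed the sign of the step between the times. TRX1 then differed by -0.20, TRX3 by 0.74, TRR2 by 0.04 and GRX1 by 0.60. The rescaled step of TRX2 was 1.67, and those of GRX2 and GLR1 were -0.52 and -0.38, in the same direction as on the deposited scale. All 10 genes kept their sign from 30 to 60 min, as did 77.7% of all features.

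**Figure D3:**
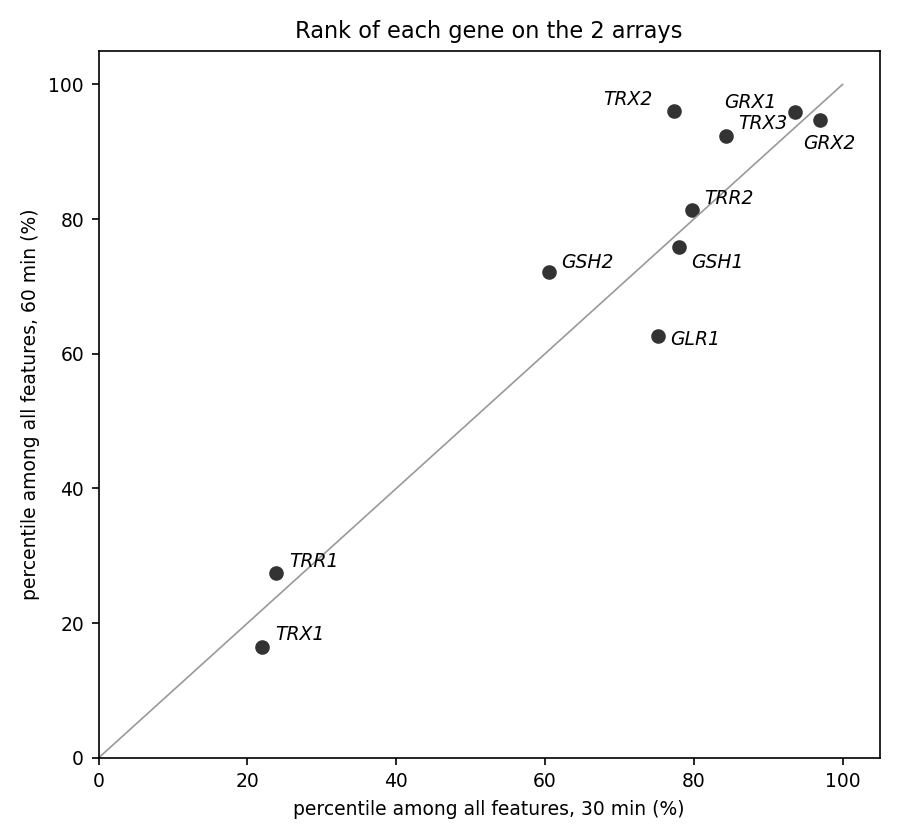
Percentile of each of the 10 genes among the 6868 features at 30 min (horizontal axis, %) and at 60 min (vertical axis, %); each point is 1 gene and the line marks equal rank. TRX2 lies farthest above the line (77.3 to 96.0) and GLR1 farthest below it (75.2 to 62.6), while TRX1 and TRR1 stand apart at the low end.

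The neighbouring genes on the chromosome were mixed in sign. Of the 20 genes that flank the 10 redox genes in the reference gene table, 12 had the sign of their redox gene at 30 min and 8 at 60 min. On each array about as many of all features were positive as negative. At 30 min 2 of the 20 were at least 2-fold higher at 30 min (MEF2 beside GSH1 and RRT8 beside GSH2) and 6 were lower, against the 15.8% and 17.3% of all features given above. Both flanking genes had the sign of the redox gene at 30 min for TRR1, GSH1 and GSH2. The genes beside TRX2, SER2 and YGR210C, had -0.94 and -1.44 at 30 min. GFD2 beside GRX1 had -2.80, and RPS6A, a ribosomal protein gene beside GLR1, had -2.54. Beside TRX1, PDC1 had -1.36 at 30 min and -1.13 at 60 min, of the same sign as TRX1, while NFG1 on the other side had 0.60 and 2.12. These genes were named after their values were seen.

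By Euclidean distance over the pair of values, the named genes nearest to GRX2 were UGX2 with 2.61 and 1.15, the autophagy gene ATG8 with 2.61 and 1.13, and GUT2, mitochondrial glycerol-3-phosphate dehydrogenase, with 2.63 and 1.09. Those nearest to TRX1 were HIS7 of histidine synthesis with -0.76 and -0.54, the alpha-tubulin gene TUB1 with -0.74 and -0.49, and SMU2 with -0.80 and -0.49. The likeness rests on 2 values for each gene.

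A further 56 genes around these systems were taken in 6 lists, chosen with earlier results of these data known. The lists also hold genes outside the systems, such as general stress regulators. Of the 56 genes, 14 were at least 2-fold higher and 6 lower at 30 min, and 9 were higher and 2 lower at 60 min. These are 25% and 10.7% at 30 min, against 15.8% and 17.3% of all features, and 16.1% and 3.57% at 60 min, against 6.67% and 4.32%. The glutaredoxins other than GRX1 and GRX2 lay closer to 0. Of 6 other glutaredoxin genes, 1 was higher and 1 lower at 30 min and none passed at 60 min (medians -0.23 and 0.08). GRX7, a glutaredoxin of the early secretory pathway, had 1.12 and 0.38, and its paralog GRX6 had 0.50 and 0.48. GRX3, a monothiol glutaredoxin of iron regulation, had -0.92 and -0.56. GRX8 had -1.27 and -0.99.

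Of 14 genes of glutathione turnover, transport and conjugation, 5 were at least 2-fold higher at 30 min and none was lower, and 2 were higher at 60 min (medians 0.52 and 0.28), with 15.8% and 17.3% of all features higher and lower at 30 min and 6.67% higher at 60 min. ECM4 (also called GTO2), an omega-class glutathione transferase, had 2.82 and 1.94. GTT1, a glutathione transferase of the endoplasmic reticulum, had 2.28 at 30 min and 2.40 at 60 min. Outside the rule for named genes, the others were GTO3 with 2.20 and 0.05 and the glutathione exchanger genes GEX2, with 1.11 and 0.32, and GEX1, which just reached 2-fold at 30 min and had 0.33 at 60 min. GEX1 and GEX2 are near-identical copies whose values cannot be assigned to single genes. The lowest of the list at 30 min were DUG3, of the glutathione-degrading complex, with -0.79 and -0.62, and URE2 with -0.21 and -0.30.

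The enzymes that thioredoxin, glutaredoxin and glutathione serve differed among themselves. Of 15 such genes, 4 were higher and 2 lower at 30 min, and 4 were higher and none lower at 60 min (medians -0.04 and 0.24). The shares over all features were 15.8% and 17.3% at 30 min and 6.67% and 4.32% at 60 min. The glutathione peroxidase gene GPX1 had 3.53 and 2.19, the peroxiredoxin gene TSA2 had 3.37 and 3.46, and the mitochondrial peroxiredoxin gene PRX1 had 3.17 and 2.13. RNR3, the damage-inducible large subunit of ribonucleotide reductase, had 1.38 and 1.40. RNR1, the main large subunit, had -3.12 at 30 min and 0.73 at 60 min, and GPX2 had -1.29 and 0.51.

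Of 10 genes of NADPH supply, 4 were higher and 1 lower at 30 min, and 3 were higher and 1 lower at 60 min (medians 0.62 and -0.03), beside the same shares of all features (15.8%, 17.3%, 6.67% and 4.32%). GND2, the minor 6-phosphogluconate dehydrogenase, had 6.14 and 5.11, against -1.32 and -1.31 for the major enzyme GND1. YEF1, an NADH kinase, had 1.63 and 1.19, and IDP3, the peroxisomal isocitrate dehydrogenase, had 1.58 and 1.20. The mitochondrial form IDP1 had -0.87 and -0.59. The remaining higher gene at 30 min, IDP2 of the cytosol, had 1.52 and 0.60 and lies outside the rule for named genes. ZWF1 and ALD6, which encode glucose-6-phosphate dehydrogenase and the main cytosolic acetaldehyde dehydrogenase and were named after their values were seen, had 0.81 and 0.43 at 30 min and -0.28 and -0.94 at 60 min.

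A list of 4 genes covered the making and the use of cysteine, a precursor of glutathione. None was higher, 2 were lower at 30 min and 1 was lower at 60 min (medians -0.85 and -0.54). Over all features, 15.8% were higher and 17.3% lower at 30 min, and 6.67% and 4.32% at 60 min. CYS4, cystathionine beta-synthase, had -1.58 and -0.59, and CYS3, cystathionine gamma-lyase, had -1.53 and -2.57. STR2 had 0.37 and 0.01, and STR3 had -0.18 and -0.48. Both act in the route from cysteine to homocysteine, so the medians mix supply and use of cysteine.

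None of 7 regulator genes was 2-fold from 0 at either time (medians 0.46 and 0.27). Of all features, 33.1% were past 2-fold in either direction at 30 min and 11.0% at 60 min. YAP1 itself had 0.91 at 30 min and 0.17 at 60 min, and YBP1, whose product assists Yap1 activation, had 0.68 and 0.27. SKN7, the partner of Yap1 at TRX2, had -0.96 and -0.42. MET4, the activator of sulphur genes, had -0.33 and -0.19. A transcript level says nothing about the activity of these factors, which are regulated by modification and location.

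**Figure D4:**
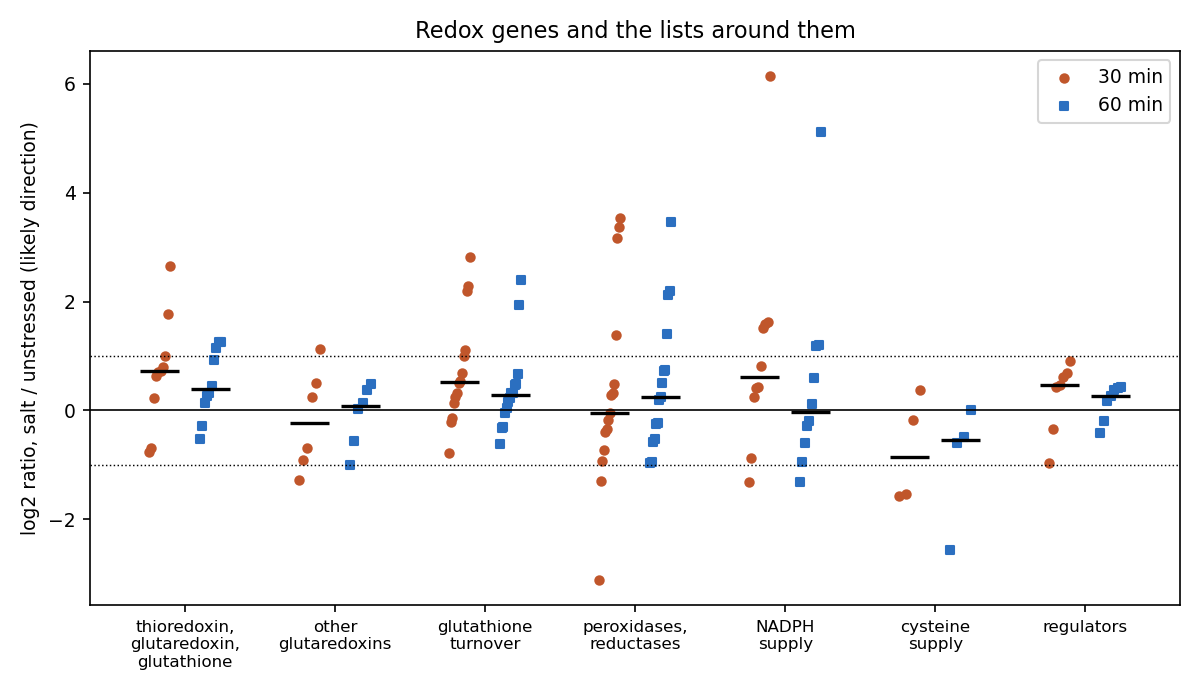
Log2 ratios (vertical axis, likely salt over unstressed) of the 10 genes at the left and of the 6 lists around them, with circles for 30 min and squares for 60 min; each point is 1 gene, the black bars are medians over genes and the dotted lines mark 2-fold. The 10 genes span from -0.77 to 2.66 at 30 min, inside the range of the peroxidase and reductase list (from -3.12 to 3.53).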

How the data were processed

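The input was 1 table of values deposited by the authors, with 1 log2 ratio per annotated feature and array. The log base, direction, background correction, normalization and combination of probes are not stated in the labels. Both columns have a median of 0. Scanner intensities were not used here, so signal over background is unknown, and the number of arrays limits the precision. Exactly 0 stood in 63 features at 30 min and 75 at 60 min, none of them a gene named here.

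Genes were matched by systematic name to a reference gene table (assembly R64), which held 5984 of the 6868 features and all 10 genes described. It was used for names and neighbours only, as no label states the array's genome build. Promoter and protein sequences were not used here, so the planned motif search was not run. Counts, percentiles and differences were computed with Python 3.11.15, numpy 2.4.6 and pandas 2.3.3. The counting step was checked on simulated data with planted values set clear of the threshold. This checks the counting code only and says nothing about the counts in these data. With 1 array per time, no test was run and no p-value is given.

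The 10 genes and the lists around them were chosen with earlier results of these data known. The rule for named genes took all 10 genes, the 2 highest and 2 lowest of each list at 30 min, every list gene past 2-fold at 60 min, and the 3 genes nearest to the highest and to the lowest of the 10. Alternatives were thresholds of 1.5-fold and 3-fold, another centring, and rescaling of the 60 min array by SD or interquartile range.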

Additional observations from a re-analysis of the deposited data

Results flagged for a closer look

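Of the 56 genes in the 6 lists, 11 had ratios of opposite sign at 30 and 60 min, which is 19.6% against 20.8% of all features. Given here are those that the report names, RNR1 and GPX2 by the rule for named genes and ZWF1 and ALD6 after their values were seen. With 1 array per time the differences were not tested. RNR1, the main large subunit of ribonucleotide reductase, had -3.12 at 30 min and 0.73 at 60 min. GPX2, a glutathione peroxidase-like gene, had -1.29 and 0.51. ZWF1, of the NADPH-producing entry to the pentose phosphate pathway, had 0.81 and -0.28, and ALD6, acetaldehyde dehydrogenase, had 0.43 and -0.94. None of the 10 thioredoxin, glutaredoxin and glutathione genes changed sign.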

How the results depend on the processing

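Re-centring each array on table genes that were not at 0 moved no count and no value by 0.1 or more on the log2 scale, the limit used here for a value without replicates. At 1.5-fold, 7 of the 10 genes were higher and 2 lower at 30 min, in place of 3 and 0 (26.6% of all features each way), and at 3-fold none was higher at 60 min, in place of 3. The scale of the 60 min array decided several values. Rescaled by SD, 4 genes were closer to 0 at 60 min, in place of 8, and the median of the 10 at 60 min was 0.73 in place of 0.39. Rescaled by interquartile range, these were 4 and 0.79, and 1 gene (TRX1) was at least 2-fold lower, in place of 0. Under both rescalings 4 genes, TRX3 among them, were at least 2-fold higher at 60 min, in place of 3. At 60 min TRX2 then exceeded TRX1 by 3.35 (SD) or 3.63 (interquartile range), in place of 1.78, TRR2 exceeded TRR1 by 1.37 or 1.48, in place of 0.73, and GRX2 minus GRX1 was -0.23 or -0.25, in place of -0.12. The rescaling of the paralog differences was chosen after seeing the data. Leaving out features at exactly 0 changed no count of the 6 lists, as none of their genes is at 0. No paired analysis was possible because there is 1 array per time and no result comes from a test. The motif window alternative was not run.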

Other observations

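A further list of 9 genes of thiol oxidation in the endoplasmic reticulum and the mitochondrial intermembrane space, chosen after the data were seen, had medians of 0.02 at 30 min and -0.04 at 60 min. MPD1, a protein disulphide isomerase family member, was the single gene of the 9 past 2-fold, with 1.21 at 30 min and 0.26 at 60 min. Of all features, 33.1% were past 2-fold in either direction at 30 min and 11.0% at 60 min. PDI1, the main protein disulphide isomerase, had -0.32 and -0.04, and ERO1, the oxidase that drives disulphide formation in the endoplasmic reticulum, had 0.21 and -0.13. MIA40 and ERV1, the disulphide relay of the intermembrane space, had 0.65 and -0.24 at 30 min and -0.10 and -0.23 at 60 min.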
